A study of Mus musculus with 16 samples.

Results

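Ubiquitin ligases, ubiquitin-conjugating enzymes and deubiquitinases were examined as host genes of circular RNAs (circRNAs) in mouse hearts. A host gene was included when its symbol began with Usp, Ube, Ubr, Rnf, Trim, Herc, Fbxo, Fbxl or Fbxw followed by a digit, with 3 such symbols left out by the rule. The rule used names only and no measured value. It found 184 of 8610 host genes, and 152 of these carried a circRNA with a count, out of 6886 host genes with a count in all. They gave 1501 of 68854 listed circRNAs, and 992 of these had a count in at least 1 library, out of 40381. The name rule is not a functional one. It took in Usp6nl, which is known as a regulator of Rab proteins and not as a deubiquitinase, and it missed ligases and deubiquitinases with other names, which are described at the end.

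The hearts came from male C57BL/6 mice, and no genotype, transgene or age is given in the labels. The study had 5 MIRI+AICAR libraries, 5 MIRI+Compound C libraries, 3 MIRI libraries and 3 Sham libraries. MIRI is the abbreviation used for ischaemia and reperfusion injury of the heart muscle. In the MIRI, MIRI+AICAR and MIRI+Compound C groups the left anterior descending coronary artery was ligated for 30 min, the ligature was released, and hearts were collected 1 week later, whereas Sham mice had no such ligation. AICAR is a drug used to activate the energy-sensing kinase AMPK, and Compound C is used to inhibit it. The sources used here give no dose and no time of dosing, and no group of uninjured mice received either drug. The design names 8 mice per group, the labels do not tie libraries to mice, and p-values therefore measure only the spread between these libraries, which may be technical. In bulk tissue, fewer cells of a type and less RNA per cell cannot be told apart.

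Ubiquitin is attached to proteins by a relay in which an activating enzyme passes it to a conjugating enzyme, and a ligase then directs it to a substrate. RING-type ligases, which include many Rnf and Trim proteins, bring the loaded conjugating enzyme next to the substrate, HECT-type ligases such as Ube3a and the Herc proteins carry ubiquitin themselves, and F-box proteins (Fbxo, Fbxl and Fbxw) are the substrate-binding parts of SCF ligases built on a cullin. Deubiquitinases, which include the Usp proteins, take ubiquitin off again. In heart muscle this system is known for the turnover of sarcomere proteins, where Trim63 and its relatives Trim54 and Trim55 act as muscle-specific RING ligases. A circRNA forms when the end of an exon is joined to the start of the same or an earlier exon, and the table counts the reads that cross this back-splice junction, so it measures circles of these genes and not their messenger RNA or protein.

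Library totals ran from 119948 to 240889 back-splice counts. The label calls the material cardiac muscle cells, but no sort is described. All 10 cardiomyocyte marker genes carried counts, with a summed level of 19658 to 35862 CPM, the count scaled to a common total of all counts, over the 16 libraries. Circles of 10 of 11 leukocyte markers (Csf1r at 0), 9 of 10 endothelial markers (Eng at 0), 7 of 8 fibroblast markers (Postn at 0) and 4 of 5 platelet and megakaryocyte markers (Itga2b at 0) were also counted. The platelet and megakaryocyte sum stood apart in MIRI library 1 (13963 CPM) and in MIRI+AICAR library 5 (4137 CPM), while the other 14 libraries held 716 to 1129 CPM. The call of the set and a part of the other named values are given with and without both of these libraries.

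The circles themselves are shown by their back-splice junctions, since these sequences are what the counts rest on. Each sequence holds the last 15 bases of the exon that ends the circle in lower case and the first 15 bases of the exon that begins it in CAPITALS, 5′ to 3′ on the gene's strand, read from GENCODE M21 transcripts on GRCm38. Rnf114, whose protein is a RING-type ligase, gave 7 counted circles, of which 5 were tested. The 4 shown here combine 2 starts with 2 ends, all within coding sequence on chromosome 2, plus strand:
Rnf114 novel_circ_040875: gataccaagtctgtgCTTTTGCTCTGCATG
Rnf114 novel_circ_040880: tacgacacttttgtgTTCATCCTATCTAAG
Rnf114 novel_circ_040879: gataccaagtctgtgTTCATCCTATCTAAG
Rnf114 novel_circ_040876: tacgacacttttgtgCTTTTGCTCTGCATG
They span exons 4 to 6 (chr2:167507047-167511326), 5 to 7 (chr2:167510876-167512624), 5 to 6 (chr2:167510876-167511326) and 4 to 7 (chr2:167507047-167512624) of an 8-exon transcript. Their exons sum to 373, 330, 222 and 481 nucleotides, and the listed spliced lengths are identical to these sums. Circles ending at exon 6 thus share their lower-case bases, and circles starting at exon 4 share their capitals.

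The most abundant circle of the set, novel_circ_033154, and another abundant one came from Fbxw4, which encodes an F-box protein with WD40 repeats known for its role in limb development. Both begin at exon 2 and differ in the exon that ends them, exon 5 for the first and exon 4 for the second, on the minus strand (chr19:45630865-45640521 and chr19:45635735-45640521):
Fbxw4 novel_circ_033154: cagcccattactcagCATGGCAGGCATTCC
Fbxw4 novel_circ_033157: gacaggacagccaagCATGGCAGGCATTCC
The leading circles of 5 other abundant hosts follow, to show the junctions behind their levels. They are from Fbxw8, the F-box partner of the cullin Cul7 (exons 6 to 7, chr5:118092496-118095729, minus strand), Trim33, a RING ligase of Smad signalling (exons 2 to 4, chr3:103310309-103311513, plus strand), Ube2k, a conjugating enzyme (exons 2 to 6, chr5:65565989-65594548, plus strand), Fbxl17, an F-box protein that sorts BTB-domain dimers (exons 2 to 4, chr17:63471408-63490887, minus strand) and Ubr3, a ligase of the UBR-box family (exons 2 to 5, chr2:69914414-69922933, plus strand):
Fbxw8 novel_circ_049180: tatgaaggaaacaagGGATCCTTAACATTT
Trim33 novel_circ_043375: gcacaaagaacatagTTGGTGTAATACGGT
Ube2k novel_circ_050914: atgggttttgataggACGAGCAAAAATCAA
Fbxl17 novel_circ_027614: caggaaaacaaattaATATTTTCCAATTTG
Ubr3 novel_circ_038986: gactcttcagatgagGTTTTGTAGAAGACA
For Fbxl17 the annotated exons sum to 513 nucleotides while the listed length is 7447. For the leading Usp3 circle, novel_circ_064038, 1 end lies inside an annotated exon and no junction is printed. The leading circles of Ube3a (novel_circ_058294) and Fbxw7 (novel_circ_042907) begin in an exon that holds 5′ untranslated sequence and are named only.

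The 992 counted circles of the set were mostly exonic (92.0%), with 7.26% exon-intron and 0.706% intronic circles, against 91.7%, 7.08% and 1.18% among circles of all other host genes. Of the 913 exonic circles, 861 had both ends on exon boundaries of a single transcript. These spanned a median of 4 exons and 498 nucleotides, against 4 exons and 493 nucleotides for other host genes. None of these 861 circles began at the first exon or ended at the last exon of its transcript, and among 31841 such circles of other host genes only 26 began at the first and 19 ended at the last. Exon 2 was the starting exon of 26.8% of circles in the set and of 22.5% elsewhere. Weighted by counts, these shares were 48.7% in the set and 37.3% elsewhere. These are descriptions with no test, and circles of 1 host are not independent.

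The set held 64039 of 2756585 counts. Its share per library was 2.33% ± 0.0776 in MIRI+AICAR (SD, n = 5), 2.35% ± 0.0199 in MIRI+Compound C (n = 5), 2.31% ± 0.0578 in MIRI (n = 3) and 2.26% ± 0.0498 in Sham (n = 3). The ranges of the groups overlapped, from 2.25% to 2.45% in MIRI+AICAR, 2.33% to 2.37% in MIRI+Compound C, 2.26% to 2.38% in MIRI and 2.20% to 2.30% in Sham, apart from MIRI+Compound C and Sham, which did not. By name, Rnf hosts took 0.523% of all counts, Usp hosts 0.466%, Fbxw hosts 0.393%, Ube hosts 0.311%, Ubr hosts 0.172%, Fbxl hosts 0.143%, Fbxo hosts 0.120%, Trim hosts 0.109% and Herc hosts 0.0866%. The 4 counted Fbxw hosts thus carried more than the 20 counted Ube hosts. Counts were concentrated, with 10 hosts holding 46.8% and 20 hosts holding 66.6% of the set's counts.

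Levels of members below are CPM over the scaled total of tested features, as a mean over 16 libraries for the sum of all circles of a host unless a single circle is named. Counts of a junction are not divided by length, since each circle has 1 junction. Among F-box hosts, Fbxw4 was the highest of the whole set at 2508 CPM and also had the smallest spread, with a coefficient of variation of 8.02% over all libraries. Fbxl17 followed at 922 CPM, then Fbxw8 at 863 CPM, Fbxw7, the substrate receptor for cyclin E, Myc and Notch, at 558 CPM and Fbxo42 at 522 CPM. Among RING hosts, Rnf114 led at 1522 CPM, ahead of Trim33 at 661 CPM and Rnf214 at 602 CPM. Ube3a, the HECT ligase linked to Angelman syndrome in humans, stood at 1171 CPM, Ubr3 at 884 CPM, Ube2k at 750.1 CPM and the very large HECT ligase Herc2 at 450.2 CPM. The deubiquitinase with most counts was Usp3, known to act on histone H2A, at 1404 CPM.

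Neighbours in this order were often not separable. Rnf114 and Usp3 lay next to each other, at 1258 ± 86.0 CPM for Rnf114 and 1624 ± 206 CPM for Usp3 in MIRI+AICAR hearts (SD, n = 5), but at 1803 ± 74.4 CPM for Rnf114 and 1156 ± 198 CPM for Usp3 in Sham hearts (n = 3), so their order depended on the group. Fbxl17, Ubr3 and Fbxw8 spanned 601 to 1223 CPM, 717 to 1141 CPM and 574 to 1040.0 CPM over the 16 libraries and overlapped throughout. Over the 100 hosts with enough counts to be tested, the median level was 96.3 CPM and the median coefficient of variation 34.0%, from 8.02% to 131%. The muscle-specific RING ligases were at the low end. Trim63 had 3 counts in all libraries together, Trim54 had 30 and Trim55 had 59.

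**Figure D1:**
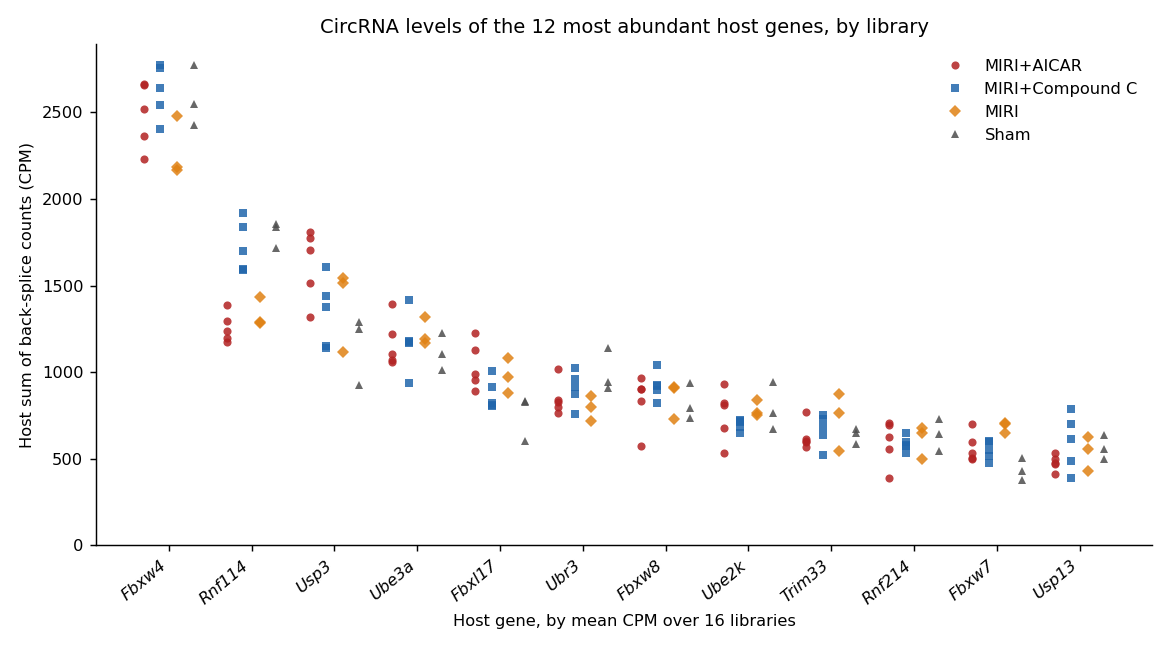
Points give the summed circRNA level (CPM, linear axis from 0) of the 12 most abundant host genes of the set in each library, with groups side by side as MIRI+AICAR, MIRI+Compound C, MIRI and Sham. Fbxw4 stands above all others, and the Rnf114 points of MIRI+AICAR and MIRI (1171 to 1435 CPM) lie below those of MIRI+Compound C and Sham (1590.3 to 1916 CPM).

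Most hosts made several circles, with 1 of them leading. The 100 tested hosts had a median of 7 counted circles, up to 34 for Ubr3, and the leading circle held a median of 58.7% of the host's counts. The other 3599 tested host genes had a median of 6 circles and a leading share of 62.4%. Among abundant hosts, the leading circle held 87.2% of the counts of Usp3, 84.5% of Ube3a, 84.6% of Fbxw8 and 84.5% of Trim33. It held 70.4% in Rnf114, 54.1% in Fbxw4, 42.3% in Herc2 and 38.9% in Ubr3. Ube2e3, which encodes a conjugating enzyme, gave a single circle with 878 counts. Counts were more evenly spread in Usp48, with 26.1% in the leading of 22 circles.

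**Figure D2:**
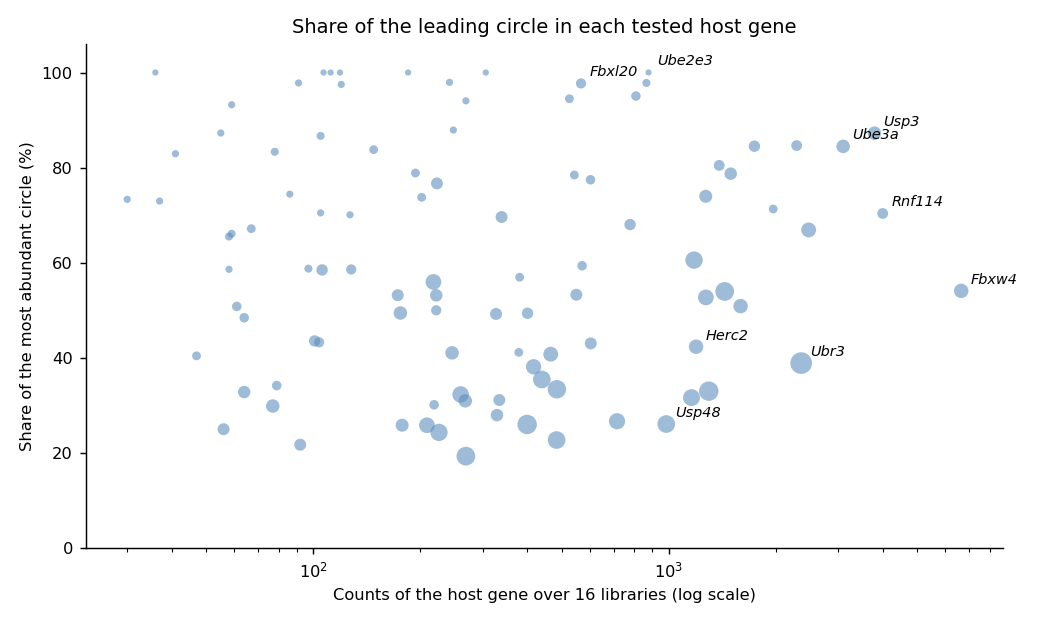
Each point is 1 of the 100 tested host genes of the set. The horizontal axis gives its counts over all 16 libraries on a log scale, the vertical axis the share of those counts in its most abundant circle (%), and point size grows with the number of counted circles. Ubr3 with 34 circles and Usp48 with 22 lie low, though not all hosts with many circles do, and Ube2e3 with 1 circle lies at 100%.

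Of the 184 hosts, 100 passed the filter on low counts as host sums, 52 had counts but did not pass, and 32 were listed at 0 in all libraries. Of the 52 that did not pass, 41 had at most 20 counts over all libraries, and none had more than 43. Of the 992 counted circles, 192 passed and were tested. All tests were fitted to the whole table (3699 host genes, 7917 circRNAs) with the edgeR quasi-likelihood test, and a feature is called where its p, adjusted over that table by the Benjamini-Hochberg method, is under 0.05. The background given beside a count of members is the share of all tested features past the same threshold in the main edgeR fit. No such share was worked out for DESeq2, voom or the alternative fits, so their counts of calls have no background. Most hosts and circles below are named for a small p. That their groups do not overlap describes the same values and adds no support. The share of all features without overlap was not worked out. SE is an approximate standard error of a log2 fold change, derived from the fold change and the F statistic of its edgeR test. It therefore adds no evidence beyond the p of that test. In all, 5 comparisons were made, and each shares libraries with at least 1 other, so their results are not independent of each other. Circles were also tested with voom, which called 0 members in all 5.

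MIRI+AICAR against MIRI+Compound C asked how injured hearts of mice given the AMPK activator and those given the AMPK inhibitor differ. Rnf114 circles were lower in MIRI+AICAR hearts, the only call of the set by edgeR. Rnf114 summed to 1171, 1296, 1198, 1387 and 1239 CPM in the 5 MIRI+AICAR libraries and to 1590.3, 1702, 1595, 1916 and 1839 CPM in the 5 MIRI+Compound C libraries. Every MIRI+AICAR library was below every MIRI+Compound C library. Means were 1258 ± 86.0 CPM in MIRI+AICAR and 1728 ± 146 CPM in MIRI+Compound C (SD, n = 5 each), a log2 fold change of -0.46 (SE 0.10) with a Benjamini-Hochberg adjusted p of 0.00852 by the edgeR quasi-likelihood test. Without MIRI library 1 and MIRI+AICAR library 5 together, the edgeR log2 fold change was -0.45 and the adjusted p 0.0122. The counts behind this were 208 to 322 per MIRI+AICAR library and 218 to 341 per MIRI+Compound C library.

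Rnf114 summed to 1435, 1287 and 1285 CPM in MIRI and to 1718, 1836 and 1855 CPM in Sham, again without overlap. MIRI against Sham gave log2 -0.43 (SE 0.13, edgeR adjusted p = 0.191), MIRI+Compound C against MIRI log2 0.37 (SE 0.12, adjusted p = 0.171) and MIRI+AICAR against MIRI log2 -0.09 (SE 0.12, adjusted p = 0.975). None of these 3 passed the threshold of 0.05.

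Single Rnf114 circles are given on their own scale, CPM over tested circRNAs. The circle of exons 4 to 6, novel_circ_040875, stood at 972, 1013, 937, 1152 and 977 CPM in MIRI+AICAR and at 1154, 1251, 1248, 1580.3 and 1512 CPM in MIRI+Compound C. The highest MIRI+AICAR value was just below the lowest MIRI+Compound C value. Its log2 fold change was -0.42 (SE 0.12) and its adjusted p 0.152 in edgeR, which did not pass. DESeq2 called it in this comparison, with an adjusted p of 0.0161. It had log2 -0.39 (edgeR adjusted p = 0.314) without MIRI library 1 and MIRI+AICAR library 5. The circle of exons 5 to 7, novel_circ_040880, averaged 249 ± 31.8 CPM in MIRI+AICAR and 332 ± 48.7 CPM in MIRI+Compound C (SD, n = 5 each), with log2 -0.42 (SE 0.18) and an edgeR adjusted p of 0.491. The smaller circle of exons 5 to 6, novel_circ_040879, had log2 -0.26 (SE 0.28). The circle of exons 4 to 7, novel_circ_040876, was near its counting limit with 0 to 6 counts per MIRI+AICAR library and 0 to 4 per MIRI+Compound C library.

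**Figure D3:**
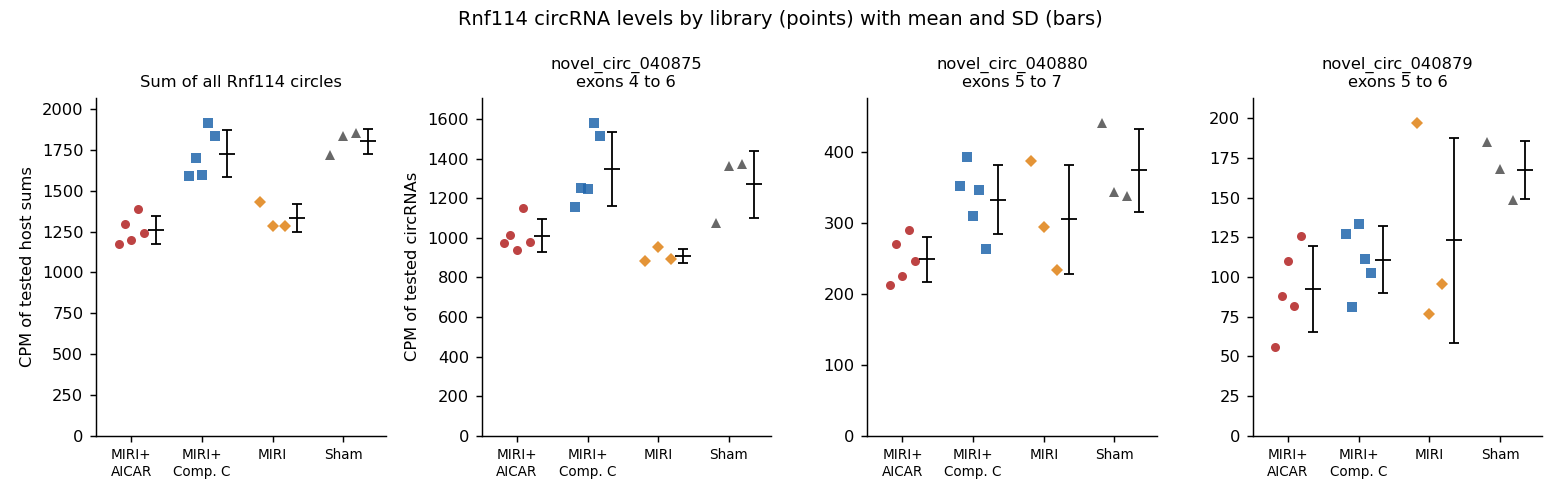
Points give each library's level (CPM, linear axes from 0) of the sum of all Rnf114 circles and of its 3 most abundant circles, named by their exons, with the group mean and SD beside them. Groups run MIRI+AICAR, MIRI+Compound C, MIRI and Sham. In the sum, MIRI+AICAR (1171 to 1387 CPM) and MIRI+Compound C (1590.3 to 1916 CPM) do not overlap, while for novel_circ_040880 they do.

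Marker sums moved with the same contrast. The endothelial sum was 1979.6 to 2699.6 CPM of all counts in MIRI+AICAR and 2750.2 to 4229.6 CPM in MIRI+Compound C, so it was lower in MIRI+AICAR, as Rnf114 was. The leukocyte sum (3138 to 4038 CPM in MIRI+AICAR, 2488 to 3028 CPM in MIRI+Compound C), the fibroblast sum (1048 to 1309 CPM in MIRI+AICAR, 732 to 1015 CPM in MIRI+Compound C) and the platelet and megakaryocyte sum (1016 to 4137 CPM in MIRI+AICAR, 716 to 933 CPM in MIRI+Compound C) were higher in MIRI+AICAR without overlap. The cardiomyocyte sum overlapped (22039.9 to 32143 CPM in MIRI+AICAR and 21624 to 35862 CPM in MIRI+Compound C). The part of these cell types in the Rnf114 result, and in the Fbxw11 and Fbxl5 values given next, was not tested.

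Over the set, this call was 1 of 100 tested hosts (0 higher, 1 lower), against 72 of 3699 host genes (1.95%) over the whole table in edgeR. DESeq2 and voom each called 2 members, and their shares over the whole table were not worked out. Without MIRI library 1 and MIRI+AICAR library 5, edgeR called 2 in a fit of 3876 host genes, with Fbxo8 added (log2 -0.69, adjusted p = 0.0286). The share of all host genes called in that fit was not worked out. In the main fit, 10 members had an unadjusted p under 0.05 (3 higher, 7 lower), against 11.9% of all host genes, so the set's share was close to the background. Signs were even, 50 positive and 50 negative, where 51.9% of all host genes were positive. The median log2 fold change of the members was within 0.001 of 0, against 0.02 for all host genes. At the level of single circles, edgeR called 0 of 192 (background 0.556%), 14 had an unadjusted p under 0.05 (background 8.51%), and DESeq2 called 1.

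Next to Rnf114 stood Fbxw11, an F-box protein of the beta-TrCP type that binds phosphorylated inhibitor of NF-kappaB and beta-catenin. Its circles summed to 84.5, 122, 104, 138 and 129 CPM in MIRI+AICAR and 241, 178, 177, 174 and 220.4 CPM in MIRI+Compound C. Every MIRI+AICAR library was lower than every MIRI+Compound C library, with log2 -0.76 (SE 0.21), but the edgeR adjusted p of 0.0537 missed the threshold. DESeq2 and voom with quality weights put it past the threshold, at adjusted p 0.0424 and 0.0379. It had log2 -0.80 (edgeR adjusted p = 0.0678) without MIRI library 1 and MIRI+AICAR library 5. Rnf213, a giant ligase with an ATPase motor known in humans as a moyamoya disease gene, had log2 -0.96 (SE 0.32, edgeR adjusted p = 0.146). On the higher side were Fbxl5, the iron-sensing F-box protein (log2 0.76, SE 0.27, adjusted p = 0.177), Rnf150, a RING protein of the membrane-anchored type (log2 0.40, SE 0.15, adjusted p = 0.209) and Usp3 (log2 0.28, SE 0.13, adjusted p = 0.374). Fbxl5 stood at 124, 128, 108, 159 and 113 CPM in MIRI+AICAR and at 43.8, 74.7, 94.1, 73.0 and 82.6 CPM in MIRI+Compound C. These groups did not overlap, and nearly all of the counts came from 1 circle, novel_circ_048188 (log2 0.85, SE 0.26, adjusted p = 0.168). Another circle with a small p was from Ube2f, a conjugating enzyme for the ubiquitin-like protein NEDD8 (novel_circ_003729, log2 -1.21, adjusted p = 0.356).

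**Figure D4:**
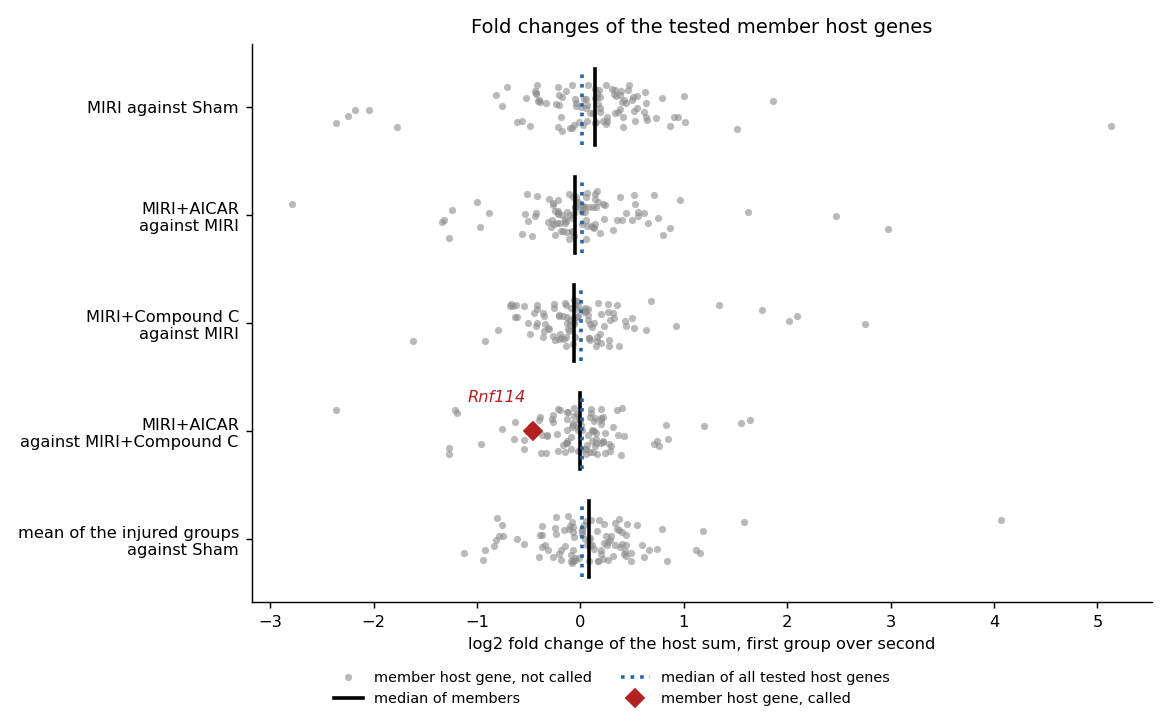
Each point is 1 of the 100 tested host genes of the set, at its log2 fold change (first group over second) in each of 5 comparisons. Black bars mark the median of the set and dotted blue bars the median of all 3699 tested host genes. Medians of the set lie between -0.06 and 0.14, and Rnf114 in MIRI+AICAR against MIRI+Compound C (log2 -0.46) is the single called host.

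MIRI against Sham asked what injury alone changed. No member was called. Over 100 hosts, edgeR called 0 (background 0.162%) and 14 had an unadjusted p under 0.05, 7 higher and 7 lower in MIRI (background 9.03%). DESeq2 and voom also called 0. Signs leaned to the higher side, with 63 positive and 37 negative fold changes, where 51.7% of all host genes were positive. The median log2 was 0.14, against 0.02 over all host genes. The median moved with the libraries used and was 0.07 without MIRI library 1, 0.06 without MIRI library 2 and 0.20 without Sham library 3. Of 192 circles, edgeR called 0 (background 0.0253%), 22 had an unadjusted p under 0.05 (background 6.82%), and DESeq2 called 0.

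Higher values were found for Fbxw7, which stood at 704, 701 and 646 CPM in MIRI and 378, 428 and 504 CPM in Sham. All 3 MIRI libraries were above all 3 Sham libraries (log2 0.64, SE 0.18, edgeR adjusted p = 0.160). Both of its main circles went the same way, novel_circ_042907 with log2 0.62 (SE 0.20, adjusted p = 0.449) and novel_circ_042902 with log2 1.07 (SE 0.36, adjusted p = 0.485). Rnf150 stood at 291, 257 and 302 CPM in MIRI and 146, 184 and 210.4 CPM in Sham, also without overlap (log2 0.63, SE 0.21, adjusted p = 0.254). Rnf4, a ligase for SUMO-tagged proteins, had log2 0.87 (SE 0.31, adjusted p = 0.292) with overlapping groups, at 392, 275 and 185 CPM in MIRI and 198, 184 and 95.6 CPM in Sham.

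Lower values were found for Rnf213, at 27.1, 24.0 and 58.8 CPM in MIRI and 68.7, 149.6 and 140.3 CPM in Sham. The groups did not overlap, but the counts were small, 4, 4 and 7 in MIRI and 8, 22 and 22 in Sham, and the edgeR adjusted p was 0.160 (log2 -1.77, SE 0.48). With no filter on low counts, 6886 host genes were tested and Rnf213 passed, at an adjusted p of 0.0499. The larger of its 2 tested circles, novel_circ_013021, was at 0 in all 3 MIRI libraries and had 17 counts over the 3 Sham libraries, a fold at least 5.91 lower when MIRI is set to a floor of 3 counts over the group (edgeR adjusted p = 0.449). Ube2f had 5, 0 and 2 counts in MIRI and 10, 11 and 8 in Sham (log2 -2.05, SE 0.74, adjusted p = 0.295). A circle of Rnf216, a RING-in-between-RING ligase, had 2, 4 and 0 counts in MIRI and 5, 10 and 11 in Sham (novel_circ_049950, log2 -2.10, SE 0.67, adjusted p = 0.432). Without MIRI library 1 and MIRI+AICAR library 5, edgeR gave log2 0.62 for Fbxw7 (adjusted p = 0.322) and log2 -1.62 for Rnf213 (adjusted p = 0.395). Ube2f was then at log2 -3.16 (adjusted p = 0.300), Rnf4 at log2 0.58 (adjusted p = 0.735) and Rnf150 at log2 0.61 (adjusted p = 0.590). The fibroblast marker sum was 965 to 1913 CPM of all counts in MIRI and 697 to 909 CPM in Sham, the platelet and megakaryocyte sum was 971 to 13963 CPM in MIRI and 750.3 to 817 CPM in Sham, and the other 3 marker sums overlapped. The part of these cell types in the values was not tested.

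**Figure D5:**
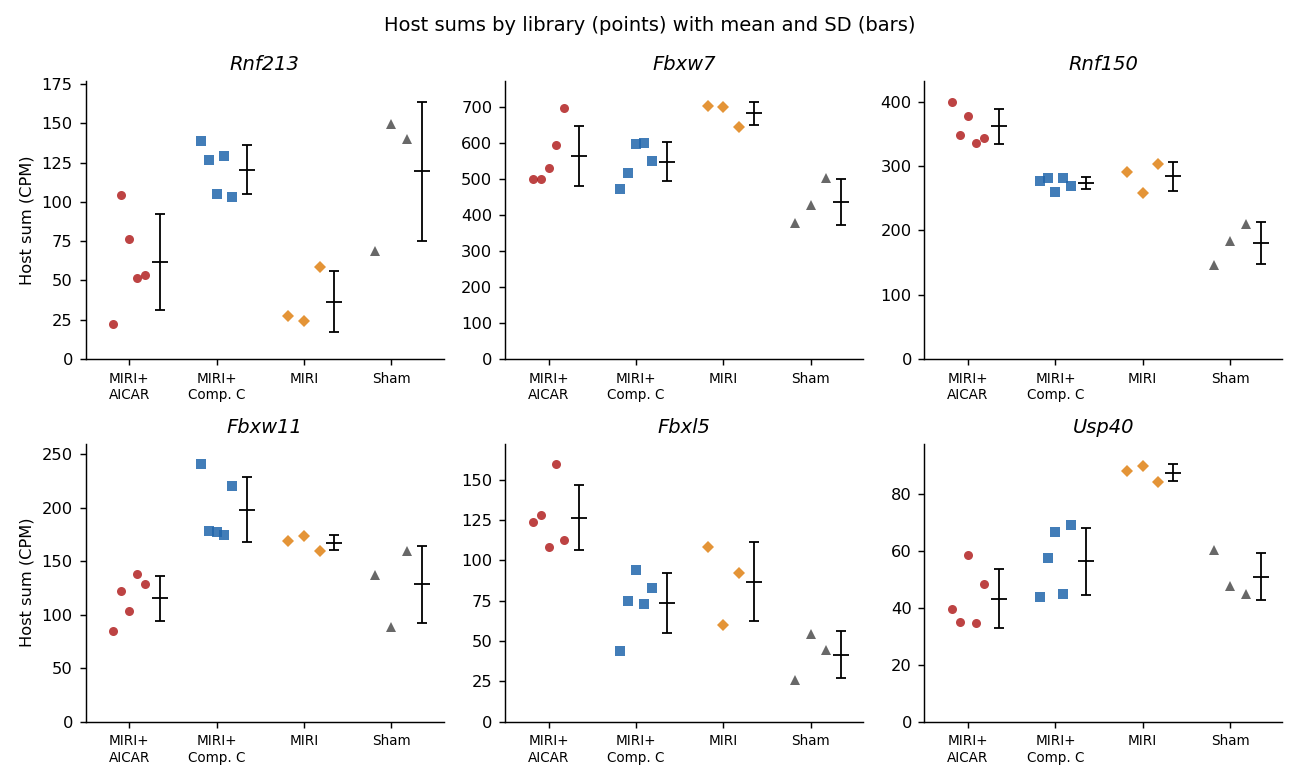
Points give the host sum (CPM, linear axes from 0) of Rnf213, Fbxw7, Rnf150, Fbxw11, Fbxl5 and Usp40 in each library, with group mean and SD beside them and groups in the order MIRI+AICAR, MIRI+Compound C, MIRI and Sham. Rnf150 is above Sham (146 to 210.4 CPM) in all 13 injured libraries (257 to 399.9 CPM), and none of these 6 hosts passed the threshold in edgeR.

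MIRI+AICAR against MIRI asked how injured hearts differ with and without AICAR, and no member was called. Over 100 hosts, edgeR called 0 (background 0.027%), 8 had an unadjusted p under 0.05, 2 higher and 6 lower (background 6.76%), and DESeq2 and voom called 0. The median log2 fold change was -0.05, against 0.02 over all host genes. Of 192 circles, edgeR called 0 (background 0.0253%), 17 had an unadjusted p under 0.05 (background 4.9%), and DESeq2 called 0. Usp40, a deubiquitinase, stood at 39.4, 34.9, 58.5, 34.5 and 48.3 CPM in MIRI+AICAR and at 88.0, 89.8 and 84.0 CPM in MIRI. The MIRI libraries were tightly grouped and above every MIRI+AICAR library (log2 -1.00, SE 0.37, edgeR adjusted p = 0.506). Rnf150 was higher in every MIRI+AICAR library, at 399.9, 349, 378, 336 and 343 CPM, against 291, 257 and 302 CPM in MIRI (log2 0.35, SE 0.17, adjusted p = 0.739).

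Usp28, a deubiquitinase known to stabilise Myc, had 4, 10, 11, 11 and 5 counts in MIRI+AICAR and 0, 3 and 0 in MIRI (edgeR adjusted p = 0.455). The ratio per library total was 6.09, with an exact 95% interval of 1.94 to 30.7 that covers only counting error of the listed counts. A listed 0 can hide a single read of a circle, which such ratios and intervals do not take in. The conjugating enzyme gene Ube2e2 had 41 counts over MIRI+AICAR and 2 over MIRI, a ratio of 9.13 (interval 2.37 to 77.9, adjusted p = 0.734), but the MIRI+AICAR counts ran from 0 to 16 and overlapped. Ube2h, another conjugating enzyme, had log2 -0.88 (SE 0.32, adjusted p = 0.506) and the F-box gene Fbxo44 log2 -1.32 (SE 0.61, adjusted p = 0.731). Among circles, the smallest p values belonged to Usp40 (novel_circ_001095, log2 -1.29), Usp48 (novel_circ_047335, log2 0.97), Ube2h (novel_circ_052593, log2 -0.82) and Rnf150 (novel_circ_062070, log2 1.87), with edgeR adjusted p between 0.801 and 0.886. All 5 marker sums overlapped between MIRI+AICAR and MIRI. Without MIRI library 1 and MIRI+AICAR library 5 the set had 0 calls, and the Usp40 host sum had log2 -1.03 (edgeR adjusted p = 0.866). The Ube2h host sum was then at log2 -0.35 (adjusted p = 0.999) and its circle at log2 -0.25, and the Rnf150 circle was at log2 1.19. Both Ube2e2 counts of MIRI came from MIRI library 1.

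MIRI+Compound C against MIRI asked how injured hearts differ with and without Compound C. No member was called, and the 2 hosts nearest to the threshold, Rnf213 and Usp28, were higher with Compound C. Over 100 hosts, edgeR called 0 (background 0.595%), 8 had an unadjusted p under 0.05, 5 higher and 3 lower (background 9%), and DESeq2 and voom called 0. The median log2 fold change was -0.06, against a median within 0.005 of 0 over all host genes. Rnf213 stood at 139, 126, 105, 129 and 103 CPM in MIRI+Compound C and at 27.1, 24.0 and 58.8 CPM in MIRI. Every MIRI+Compound C library was above every MIRI library (log2 1.76, SE 0.44, edgeR adjusted p = 0.0625). It passed the threshold without MIRI library 3 (log2 2.21, adjusted p = 0.0255) and with no filter on low counts (adjusted p = 0.0141). Usp28 had 5, 11, 5, 14 and 6 counts in MIRI+Compound C and 0, 3 and 0 in MIRI, a ratio of 7.34 (exact interval 2.34 to 37.0, edgeR adjusted p = 0.149). Without MIRI library 2, the only MIRI library with a Usp28 count, MIRI held no count of it, and its log2 was 6.07 (edgeR adjusted p = 0.0345). Without MIRI library 1 and MIRI+AICAR library 5 the set had 0 calls. Rnf213 then had log2 1.61 (edgeR adjusted p = 0.376) and Usp28 log2 2.21 (adjusted p = 0.517). The endothelial marker sum, 2750.2 to 4229.6 CPM of all counts in MIRI+Compound C and 2066 to 2739.7 CPM in MIRI, was higher with Compound C without overlap, as Rnf213 was. The platelet and megakaryocyte sum was lower without overlap, 716 to 933 CPM in MIRI+Compound C and 971 to 13963 CPM in MIRI. Their part in the values was not tested.

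Lower values with Compound C were found for Rnf138, a RING ligase known from DNA repair (log2 -0.55, SE 0.22, edgeR adjusted p = 0.374), Rnf4 (log2 -0.64, SE 0.26, adjusted p = 0.384) and Fbxw7 (log2 -0.32, SE 0.15, adjusted p = 0.544). Rnf138 had log2 -0.33 (edgeR adjusted p = 0.914) and Rnf4 log2 -0.34 (adjusted p = 0.943) without MIRI library 1 and MIRI+AICAR library 5. Fbxw7 stood at 474, 517, 598, 601 and 551 CPM in MIRI+Compound C and at 704, 701 and 646 CPM in MIRI, without overlap. Of 192 circles, edgeR called 0 (background 0.0884%) and 13 had an unadjusted p under 0.05 (background 6.47%). The leading Rnf114 circle had the smallest p, at 1154, 1251, 1248, 1580.3 and 1512 CPM in MIRI+Compound C and 883, 951 and 893 CPM in MIRI, without overlap (log2 0.57, SE 0.15, edgeR adjusted p = 0.227). DESeq2 called it (adjusted p = 0.0134), and so did edgeR with no filter on low counts (adjusted p = 0.0464). It had log2 0.56 (edgeR adjusted p = 0.667) without MIRI library 1 and MIRI+AICAR library 5. The Rnf114 circle of exons 4 to 7 went the other way, with 0, 4, 0, 4 and 4 counts in MIRI+Compound C and 6, 8 and 7 in MIRI (log2 -1.66, SE 0.75, adjusted p = 0.700). Circles of Ube2f (novel_circ_003729, log2 2.03, adjusted p = 0.323) and Rnf4 (novel_circ_050614, log2 -0.58, adjusted p = 0.735) also had small unadjusted p, and without those libraries stood at log2 3.17 for Ube2f and -0.32 for Rnf4.

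The mean of the 3 injured groups against Sham asked how their average differed from Sham. A single injured group can drive this average, so a difference need not be shared by all of them. No member was called by edgeR among 100 hosts (background 0.27%), 10 had an unadjusted p under 0.05, 6 higher and 4 lower (background 9.25%), DESeq2 called 1, Rnf114, and voom called 0. Rnf150 came nearest in edgeR. Its circles stood at 399.9, 349, 378, 336 and 343 CPM in MIRI+AICAR, 277, 282, 260.2, 281 and 269 CPM in MIRI+Compound C, 291, 257 and 302 CPM in MIRI and 146, 184 and 210.4 CPM in Sham. All 13 injured libraries were above all 3 Sham libraries (log2 0.74, SE 0.17, edgeR adjusted p = 0.0521). With a minimum count of 10 in the filter, 2711 host genes were tested and its adjusted p was 0.0397. Without MIRI library 1 and MIRI+AICAR library 5, its log2 fold change was 0.73 and its edgeR adjusted p 0.0717.

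Further members with small unadjusted p were higher in the mean of the injured groups, namely Fbxl5 (log2 1.12, SE 0.34, edgeR adjusted p = 0.196) and Fbxw7 (log2 0.44, SE 0.14, adjusted p = 0.238). Lower in that mean were Rnf114 (log2 -0.34, SE 0.10, edgeR adjusted p = 0.166), Rnf213 (log2 -0.92, SE 0.33, adjusted p = 0.296) and Ube2f (log2 -1.12, SE 0.50, adjusted p = 0.454). For these 5 hosts the injured and Sham ranges overlapped, and DESeq2 gave Rnf114 an adjusted p of 0.0420. For Rnf114 and Rnf213 the MIRI+Compound C range itself overlapped that of Sham, so their lower mean was not a trait of all injured hearts. Of 192 circles, edgeR called 0 (background 0.0379%), 21 had an unadjusted p under 0.05 (background 7.38%), and DESeq2 called 0. The smallest p belonged to the leading circle of Fbxl17 (novel_circ_027614, log2 0.55, SE 0.16, edgeR adjusted p = 0.297), the leading circle of Fbxl5 (novel_circ_048188, log2 1.12, SE 0.33, adjusted p = 0.297), the Rnf216 circle novel_circ_049950 (log2 -1.36, SE 0.45, adjusted p = 0.392) and the Rnf213 circle novel_circ_013021 (log2 -2.48, SE 0.97, adjusted p = 0.526). Family medians of the host sums ranged from -0.19 for the 10 tested Fbxo hosts to 0.28 for the 6 tested Fbxl hosts, with 0.24 for the 28 tested Usp hosts.

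Whether circles of 1 host changed unequally was tested for 44 members with at least 2 tested circles, out of 1624 such host genes. None was called by edgeR in MIRI against Sham (background 0.0616%), MIRI+AICAR against MIRI (background 0.0616%), MIRI+Compound C against MIRI (background 0%) or MIRI+AICAR against MIRI+Compound C (background 0.123%). At an unadjusted p under 0.05 there were 5 members in MIRI against Sham (background 6.77%), 3 in MIRI+AICAR against MIRI (background 4.19%), 3 in MIRI+Compound C against MIRI (background 4.8%) and 1 in MIRI+AICAR against MIRI+Compound C (background 3.94%). In MIRI against Sham the smallest p belonged to Ube2cbp, Ube2g1 and Rnf213 (adjusted p = 0.443, 0.529 and 0.604). For Ube2cbp, whose protein binds a conjugating enzyme, the circle novel_circ_064393 had 0, 0 and 0 counts in MIRI and 4, 5 and 4 in Sham. In MIRI+AICAR against MIRI they were Usp48, Rnf213 and Ube2cbp (each with adjusted p = 0.997). In MIRI+Compound C against MIRI they were Rnf114 (adjusted p = 0.915), Rnf213 (0.915) and Ube2cbp (0.995), and in MIRI+AICAR against MIRI+Compound C they included Ube2w, a conjugating enzyme, and Rnf216 (each 0.999).

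The share of the leading circle within its host is given for the 3 most abundant members. In Rnf114 it was 72.5% ± 2.11 in MIRI+AICAR (SD, n = 5), 72.5% ± 3.79 in MIRI+Compound C (n = 5), 64.6% ± 6.56 in MIRI (n = 3) and 66.7% ± 4.92 in Sham (n = 3). In Fbxw4 it was 56.5% ± 8.24 in MIRI+AICAR, 53.4% ± 6.46 in MIRI+Compound C, 52.8% ± 1.72 in MIRI and 50.9% ± 6.46 in Sham. In Usp3 it stayed between 82.3% and 90.9% in all 16 libraries.

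Ubiquitin system genes outside the name rule were set beside the members: 108 genes in 6 lists, of which 75 were tested. In MIRI+AICAR against MIRI+Compound C, 2 of the 75 were called, against a background of 1.95% of all host genes, and both were lower, the HECT ligase Hecw2 (log2 -0.55, edgeR adjusted p = 0.00344) and Dtx3l, a RING ligase that partners an ADP-ribosyltransferase (log2 -0.71, adjusted p = 0.00293). In the other 4 comparisons 0 of the 75 were called by edgeR, the only tool used for these lists, and 3 to 9 had an unadjusted p under 0.05, against 6.76% to 9.25% of all host genes. Their median log2 fold changes were 0.04 in MIRI against Sham, 0.11 in MIRI+AICAR against MIRI, -0.05 in MIRI+Compound C against MIRI, -0.01 in MIRI+AICAR against MIRI+Compound C and 0.03 for all injured groups against Sham. By list, 3 of 9 E1 enzymes, 13 of 17 HECT ligases, 13 of 17 cullins and adaptors, 28 of 34 other RING and related ligases, 10 of 18 other deubiquitinases and related proteases and 8 of 13 proteasome and segregase genes were tested. The list of deubiquitinases and related proteases included Senp genes such as Senp2, whose proteins act on SUMO and are not deubiquitinases.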

How the data were processed

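CircRNAs were sequenced in 16 heart libraries. Ribosomal RNA was depleted, per the labels, and RNase R degraded linear RNA before dUTP strand-marked libraries were sequenced as DNA nanoballs. The deposited table holds whole-number counts of back-splice reads per circRNA and library, made by the authors with no further normalisation, and per the file headers CIRI called the circRNAs. For the aligner and the caller's version, no statement was found in the labels or headers (not given in the sources used). The smallest count above 0 is 2, so 0 can hide a single read. The submitters' processing notes name mm9, but 96.5% of exonic starts and 96.3% of exonic ends lie on GENCODE M21 exon boundaries of GRCm38, against 0.181% to 0.323% after moving by 1 base, and coordinates are given on GRCm38.

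Counts were analysed per circRNA and summed per symbol in R 4.3.3 with edgeR 4.0.16 (TMM scaling, filterByExpr with min.count 5 and min.total.count 15, quasi-likelihood F test, 1 fit of 4 groups, Benjamini-Hochberg over the whole table, threshold 0.05, two-sided). Levels are CPM over the scaled total of tested features, so host sums and single circles have different scales. Unequal change among circles was tested with diffSpliceDGE. DESeq2 1.42.0, limma 3.58.1 (voom with quality weights), other scalings and filters, a replicate block and leaving out libraries were alternatives. Scripts were tested on simulated data. Python 3.11.15, pandas 2.3.3, scipy 1.17.1 and matplotlib 3.10.9 made summaries and figures. Library totals of 119948 to 240889 counts limit precision for hosts with few counts. Intervals and floors cover only counting error of the listed counts, and not single reads hidden by a listed 0.

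The members, gene lists and tests were chosen with earlier results of these data known. Named genes are the 10 highest hosts and circles, the leading host of each of the 9 name families, and per comparison the called members or, where too few were called, the 3 hosts and 2 circles with the smallest p in each direction and the 3 hosts with the smallest p for unequal change. Usp6nl, Trim63, Trim54, Trim55, Ube2e3, Usp48, Fbxo8, Dtx3l and Hecw2, where named outside these rules, were chosen after their values were seen. The results of 1 member that these rules name are not reported here. No 2 libraries of the same group were alike within counting error.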

Additional observations from a re-analysis of the deposited data

Results flagged for a closer look

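Within groups of 5 libraries, 108 sets of values of named members were searched for a single library far from the rest, and 3 stood out, or 2.78%. Chance flags about 1 in 20 groups. The Trim33 host sum was 770.1 CPM in MIRI+AICAR library 3, while the other 4 MIRI+AICAR libraries held 569 to 616 CPM. The Fbxw8 circle novel_circ_049180 was at 1029.8 CPM in MIRI+Compound C library 5, and the other 4 libraries of that group held 772 to 818 CPM. The Fbxl5 circle novel_circ_048188 was at 44.9 CPM in MIRI+Compound C library 1, with 80.2 to 87.6 CPM in the other 4. The last of these belongs to a host whose MIRI+AICAR and MIRI+Compound C libraries did not overlap, and its MIRI+AICAR libraries were above all 5 MIRI+Compound C libraries with or without that low value.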

How the results depend on the processing

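Over 50 named results, 914 recomputed values gave 901 on the same side of the threshold with the same direction, 13 that newly passed it and none that reversed or lost a call. Only the Rnf114 host sum in MIRI+AICAR against MIRI+Compound C was called in the main fit, so no other result could lose a call. An uncalled result counted as the same even where its size changed. The Ube2h host sum in MIRI+AICAR against MIRI, for example, ran from log2 -1.06 to -0.35. The Rnf114 call in MIRI+AICAR against MIRI+Compound C held in all 19 alternatives, with adjusted p from 4.47e-05 to 0.0423. Counts of called member hosts changed as follows, and the share of all host genes called was not worked out for these fits. With no filter, MIRI against Sham and MIRI+Compound C against MIRI had 1 each (Rnf213) and MIRI+AICAR against MIRI+Compound C had 2 (Fbxo8 added, which lies outside the rule for named genes). The last comparison also had 2 with a minimum count of 10, DESeq2 and voom with quality weights (Fbxw11 added) and without MIRI library 1 and MIRI+AICAR library 5 together (Fbxo8 added), and 3 in a fit of only the groups compared. All injured groups against Sham had 1 with a minimum count of 10 (Rnf150) and with DESeq2 (Rnf114). Called member circles numbered 1 with no filter and with DESeq2 in MIRI+Compound C against MIRI and 1 with DESeq2 in MIRI+AICAR against MIRI+Compound C, each time novel_circ_040875. The cause of these changes was not tested. Leaving out 1 library at a time gave 0 to 1 called hosts in MIRI+Compound C against MIRI, 1 to 1 in MIRI+AICAR against MIRI+Compound C, 0 to 0 elsewhere, and 0 to 0 for circles and for unequal change. RLE and total-count scaling changed no count of calls. Same-numbered libraries deviated together weakly at most (20 pairs, correlations from -0.0435 to 0.0809, against a median of -0.00416 for other pairs). All same-numbered pairs of MIRI and Sham libraries were positive. A replicate block left 1 called host in MIRI+AICAR against MIRI+Compound C (Rnf114, edgeR adjusted p = 0.00906) and 0 in every other comparison. Medians over the set moved by more than the spread between libraries in 17 recomputations and by less in 60, and that of MIRI against Sham ran from 0.06 with no filter to 0.20 without Sham library 3. Low counts limit the set: 52 counted hosts were not tested, and a fit of only the groups compared could not be set against the pooled comparison, which already uses all groups.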

Other observations

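Another 2 members are described because their values drew attention after they were seen. Fbxo8, an F-box protein gene, was at 203, 221, 189, 297 and 274 CPM in MIRI+AICAR, 314, 414, 359.9, 427 and 324 CPM in MIRI+Compound C, 40.6, 353 and 319 CPM in MIRI and 464, 408 and 338 CPM in Sham. MIRI library 1 held 6 counts of it where the other 2 MIRI libraries held 59 and 38, and it is the library with the highest platelet and megakaryocyte marker sum; what links these values was not tested. The MIRI+AICAR and MIRI+Compound C libraries did not overlap (log2 -0.64, edgeR adjusted p = 0.280). Trim54, a muscle-specific RING ligase, had its 30 counts in 7 libraries, with 0, 0, 0, 0 and 3 in MIRI+AICAR, 0, 4, 4, 6 and 2 in MIRI+Compound C, 0, 6 and 5 in MIRI and 0 in all 3 Sham libraries.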
